A study of Sus scrofa with 2 samples.

Results

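The members described here are short RNA reads made almost wholly of G and C: distinct sequences of 18 to 32 nt in which these bases make up at least 80% of the letters. They were chosen by length and base composition alone, and not by their counts. Of 1166705 distinct sequences in both libraries, 1144324 had this length and 5693 were members, with 2344 members seen among control reads and 4190 among knockdown reads. The RNA came from pig oocytes at metaphase II, the stage reached after 42 h of maturation in vitro. One group is labelled control and the other Dicer KD, in which Dicer was knocked down with siRNA before maturation, in oocytes at the germinal vesicle stage. Dicer is the enzyme that processes precursor hairpins and long duplexes to small RNAs. The labels word the siRNA treatment alike for both samples, and give neither the siRNA's sequence nor a treatment of the control alone. Each group was 1 library, so the values compare libraries and not conditions, and no test between groups was possible. Small RNA reads do not measure the Dicer transcript, so the knockdown was not checked here. In a library from bulk oocytes, fewer cells holding an RNA and less of it per cell cannot be told apart.

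GC-rich stretches are a known feature of mammalian ribosomal RNA (rRNA). The 28S rRNA of the large subunit carries expansion segments, long insertions that vary between species and consist largely of G and C, whereas the 18S rRNA of the small subunit is less rich in them. Fragments of rRNA are found in most small RNA libraries, as products of ordinary turnover or of specific cleavage. They differ from miRNAs and from piRNAs, the germ line small RNAs that guide Piwi proteins and mostly start with U, read here as T.

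The sequences that carried most of the reads fell into a few overlapping sets, and some of those outside the rRNA reference are shown here because they show what such reads look like. Members were grouped into families, in which each shares a run of at least 15 nt with the most abundant one. The heads of the 20 largest families were then extended with overlapping reads into 16 longer stretches, called segments and numbered in that order. Capitals mark the most abundant member within each stretch, and all are written 5′ to 3′ as deposited.
Segment 2, bases 32 to 96: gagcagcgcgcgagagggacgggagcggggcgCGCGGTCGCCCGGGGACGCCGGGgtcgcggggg
Segment 4: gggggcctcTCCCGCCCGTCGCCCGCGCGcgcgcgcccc
Segment 6: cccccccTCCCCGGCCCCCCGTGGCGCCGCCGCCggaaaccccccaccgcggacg
Segment 7: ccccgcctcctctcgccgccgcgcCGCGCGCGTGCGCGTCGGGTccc
Segment 8: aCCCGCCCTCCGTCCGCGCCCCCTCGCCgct
Segment 16: cCCGGGCTGGGACGGGGCGAAGGGgaa
The capitals of the first 5 headed families that were far more abundant in the knockdown library, and those of segment 16 headed one at similar levels in both. The printed bases of segment 2 also held a family with a ratio of 0.952 (0.808 to 1.12) and one with a ratio of 0.244 (0.197 to 0.300). Segments 13 and 15, which have no rRNA match either, are not printed, with member reads of 31 and 561 and of 170 and 251. The first 31 bases of segment 2 matched human 28S rRNA and are not printed. Segments 1 and 9 lay wholly in 28S rRNA and segments 5 and 12 wholly in 18S rRNA. Their reads are described by RNA and length, without letters. Segments joined through GC-rich repeats may link RNAs that are not one molecule.

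As a group the GC-rich reads were several times more abundant in the knockdown library. They made up 7139 of 11836160 control reads, 0.0603% (exact Clopper-Pearson 95% interval 0.0589 to 0.0617%), and 66260 of 11982925 knockdown reads, 0.553% (0.549 to 0.557%). Scaled to equal library size (RPM), these were 603 and 5530. The ratio of knockdown to control was 9.17, with an exact conditional 95% interval of 8.95 to 9.40. All intervals reflect counting error alone. PCR copies were not marked with molecular identifiers, so reads are not independent molecules, and the spread between libraries of 1 group is not measured. Markers of other cells also differed between the libraries. The 7 stromal and vascular miRNAs summed to 27.6 RPM in the control library. In the knockdown library their sum was 124 RPM, and the ratio of sums was 4.49 (3.98 to 5.08), with 6 of 7 detected and miR-214-3p at 0 in both. Of 327 control and 1487 knockdown reads in the stromal sum, 275 and 1371 were miR-143-3p. The next, miR-199a-3p, had a ratio of 1.72 (1.21 to 2.48), and miR-126-5p had 1 and 18 reads. For miR-145-5p, miR-126-3p and miR-199a-5p there were 0 control reads and 4, 3 and 2 knockdown reads. The 5 granulosa miRNAs, all detected, summed to 471 and 606 RPM, almost all of it miR-21-5p, with a ratio of 1.29. The others went both ways. Ratios were 0.567 (0.340 to 0.92995) for miR-383-5p and 0.762 (0.503 to 1.15) for miR-132-3p. They were 4.61 (1.87 to 13.6) for miR-202-5p, on 6 and 28 reads, and 1.15 (0.332 to 4.15) for miR-212-3p. The 3 blood miRNAs summed to 34.8 and 47.0 RPM, with miR-144-3p at 0 in both. Of 412 and 563 reads in that sum, 405 and 559 were miR-486-5p. For miR-451 there were 7 and 4 reads, a ratio of 0.564 (0.121 to 2.22). The 15 markers were written from memory as background knowledge and checked against no file, so a count of 0 or near 0 may also reflect a typing error. Matching used bases 2 to 20 of each marker and reads of 19 to 26 nt. The part of other cells in the results was not tested.

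The difference was steep in GC content. Reads of 18 to 32 nt with under 50% GC had a ratio of 1.003 and those of 60 to 70% one of 0.871. Reads of 70 to 80% GC were at 42850 and 53145, a ratio of 1.23 (1.21 to 1.24). Among members, those of 80 to 90% GC numbered 5702 control against 35623 knockdown reads, with a ratio of 6.17 (6.001 to 6.35). Those of 90% or more numbered 1437 and 30637, a ratio of 21.1 (19.97 to 22.2). Ratios in the classes under 80% thus lay between 0.871 and 1.23, and those of both classes of members were several times higher.

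A small number of sequences held many of the knockdown reads. The 10 most abundant members, ranked by reads summed over both libraries and so picked mainly through the knockdown library, had 216 reads in the control and 29997 in the knockdown library, for a ratio of 137 (120 to 158). The 5172 members with under 10 reads in both libraries together had 3042 and 6747 reads, a ratio of 2.19 (2.10 to 2.29). This contrast follows in part from the ranking and is a description only. In each library's own ranking, the 10 most abundant members held 18.8% of control member reads and 45.3% of knockdown member reads. The libraries shared 841 members, which is 35.9% of the control members and 20.1% of the knockdown members. These shared members held 69.6% and 82.9% of the member reads. Of all 1166705 distinct sequences, 720572 were seen in the control and 689709 in the knockdown library, so many sequences outside the members were unshared too. The overlap of members is a description only. Both libraries had long tails, with 1442 control members and 2243 knockdown members at 1 read.

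Near-copies of the abundant members were few among the members. Members that differed by 1 substitution from one of the 10 most abundant numbered 175, with 13 control and 620 knockdown reads. Each was at most 1.74% as abundant as the member it resembled.

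Of the 5693 members, 87 had reads that summed to at least 100 over both libraries. They held 1700 control and 49946 knockdown reads, and 10 had no control read, so most passed this limit through the knockdown library and had to be higher there. As a description, 81 of them had a ratio of 2 or more and 2 a ratio of 0.5 or less, with a count of 0 set to 3 reads. Among all 13625 sequences of 18 to 32 nt that passed the same limit, 5.69% reached the upper ratio and 5.68% the lower one. The counts of these 87 do not stand for all members.

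The most abundant member was a 21-nt 28S rRNA sequence, with 83 control against 7046 knockdown reads and a ratio of 83.9 (67.5 to 105). A 22-nt 28S sequence followed with 27 and 6386 reads, a ratio of 234 (160 to 355). The capitals of segment 4, a 20-nt sequence without an rRNA match, had 11 and 5049 reads, a ratio of 453 (253 to 909), and were the most abundant member starting with T. The capitals of segment 2 had 15 and 3302 reads, a ratio of 217 (132 to 389). A form that starts 5 bases earlier, at base 59 of segment 2, and ends at the same base 86, had 16 and 1240 reads, a ratio of 76.6 (47.0 to 134). It was the most abundant member starting with G. All of these were rare in the control library and common in the knockdown library.

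Other fragments of the same 28S and 18S stretches completed the 10 most abundant. A 30-nt 28S sequence had 17 and 2152 reads and a ratio of 125 (77.9 to 215). A 32-nt one had 6 and 1416 reads, a ratio of 233 (107 to 636), and a 24-nt one 18 and 1149 reads, a ratio of 63.1 (39.7 to 107). From 18S rRNA, a 24-nt sequence had 10 and 1258 reads and a ratio of 124 (67.3 to 260), and its 23-nt form, 1 base shorter at the 3′ end, had 13 and 999 reads, a ratio of 75.9 (44.2 to 143). The most abundant member starting with A was a 29-nt 18S sequence, with 2 and 767 reads. It ended at the same base as the 24-nt form and had a ratio of 379 (105 to 3134).

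The largest ratios belonged to forms nested in these. Beside the capitals of segment 4 and the 29-nt 18S sequence, the 5 largest included a 20-nt 28S sequence with 1 control against 478 knockdown reads and a ratio of 472 (84.3 to 18687). A 23-nt 28S sequence had 2 and 877 reads and a ratio of 433 (120 to 3582). The first 20 bases of the capitals of segment 2 had 1 and 355 reads, a ratio of 351 (62.5 to 13888). With 1 or 2 control reads the size of these ratios is known only within the wide intervals given.

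A minority of abundant members did not follow. Of members with at least 100 summed reads, the one most reduced in the knockdown library lay in segment 2, at bases 37 to 56. It is shown because reads starting further along the same segment were higher in the knockdown library.
Bases 37 to 56: gcgcgcgagagggacgggag
It was read 217 times in the control and 40 times in the knockdown library, and its ratio was 0.182 (0.127 to 0.256), which is 5.49-fold lower. An 18-nt 18S sequence was the most abundant member of the control library, at 5.94% of its member reads, with 424 and 214 reads, a ratio of 0.499 (0.421 to 0.589). The capitals of segment 16 had 212 and 173 reads, a ratio of 0.806 (0.656 to 0.990). A 20-nt 18S sequence had 64 and 51 reads and a ratio of 0.787 (0.534 to 1.16), and a 30-nt 28S sequence 107 and 88, a ratio of 0.812 (0.606 to 1.09). The intervals of both hold 1. A further abundant member between the 2-fold limits, a 23-nt sequence without an rRNA match that was picked out after its values were seen, had 54 and 55 reads.

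Exactly at 80% GC, the most abundant were the 20-nt sequence at bases 37 to 56 of segment 2 and a 25-nt 28S sequence with 71 and 206 reads, a ratio of 2.87 (2.18 to 3.81). One G or C short of the rule, the most abundant were forms of 19 and 18 nt from the 28S stretch of segment 1. They had 32 and 2281 reads and 4 and 915 reads, ratios of 70.4 (49.7 to 103) and 226 (87.9 to 831).

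By length, the knockdown library held more of its GC-rich reads between 20 and 23 nt. This range took 42.2% of control member reads (41.0 to 43.3%) and 57.5% of knockdown member reads (57.2 to 57.9%), with a ratio of 12.5 (12.05 to 13.0). Without the 10 most abundant members the shares were 41.4% and 42.3%, and with each distinct sequence counted once they were 44.9% and 44.3%, so the higher share rests on a few abundant sequences. Reads of 18 to 19 nt went from 15.1% to 6.47% of member reads, with a ratio of 3.93 (3.67 to 4.20), and reads of 24 to 32 nt had a ratio of 7.72 (7.44 to 8.02). By single length the ratio was lowest at 18 nt, with 778 and 1772 reads and a ratio of 2.25 (2.07 to 2.45). There 1 18S sequence gave 424 and 214 reads, which also count in the range of 18 to 19 nt. The ratio was highest at 32 nt, with 35 and 1582 reads and a ratio of 44.6 (31.96 to 64.3), where 1 sequence held 1416 of the knockdown reads. At 22 nt it was 17.8 (16.3 to 19.4). The other reads of 18 to 32 nt put 36.9% and 34.9% between 20 and 23 nt.

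The first base set the GC-rich reads apart from the rest of both libraries. T began 85.9% of the other control reads and 84.9% of the other knockdown reads, but 7.84% (7.23 to 8.49%) and 13.6% (13.3 to 13.8%) of the member reads. This is in part fixed by the rule, since a read of G and C seldom starts with T. C began 44.4% of control and 63.0% of knockdown member reads, and its ratio was 13.0 (12.5 to 13.5). G began 30.4% and 16.9%, with a ratio of 5.10 (4.87 to 5.34), and A 17.4% and 6.57%, with a ratio of 3.46 (3.25 to 3.69). Of 1241 control and 4350 knockdown reads starting with A, the 18-nt 18S sequence most abundant in the control library gave 424 and 214. Reads starting with T had the highest ratio, 15.8 (14.5 to 17.3), on 560 and 8979 reads, of which the capitals of segment 4 gave 11 and 5049. At the 3′ end, G closed 31.0% of control and 50.7% of knockdown member reads, and A closed 5.995% and 0.803%.

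In composition, reads with more G than C took 71.7% of control member reads and 52.1% of knockdown member reads. Reads with more C than G numbered 1249 and 19973, a ratio of 15.8 (14.9 to 16.7), against 6.66 (6.46 to 6.86) for those with more G. Member reads held 4.19 CpG steps on average in the control and 5.35 in the knockdown library. Homopolymer runs differed less. Member reads with a run of at least 8 of 1 base numbered 115 and 191, a ratio of 1.64 (1.29 to 2.09).

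The members formed 1632 families, of which 1233 had a single member. The 8 largest families held 18.8% of control and 79.9% of knockdown member reads, and all 8 had ratios above 2, from 11.8 to 61.6. Members of a family share sequence and are not independent. Of the 20 largest families, 15 had a ratio of at least 2, 2 had a ratio of at most 0.5 and 3 lay between. Families were ranked by reads summed over both libraries, and the knockdown library gave most of those reads.

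The largest family was headed by the 22-nt 28S sequence and had 212 members with 461 and 15782 reads, a ratio of 33.8 (30.8 to 37.2). The head made up 5.86% of the family's control reads and 40.5% of its knockdown reads. The family headed by the capitals of segment 2 had 188 members with 150 and 9202 reads, a ratio of 60.6 (51.6 to 71.7). The family of the 21-nt 28S sequence had 98 members with 163 and 8025 reads, a ratio of 48.6 (41.6 to 57.1), and its head alone gave 50.9% of the control and 87.8% of the knockdown reads. The family of segment 4 had 111 members with 119 and 7426 reads, a ratio of 61.6 (51.4 to 74.5). In each, the head took a larger share of the family in the knockdown library than in the control. This follows in part from the choice of heads by summed reads, most of them knockdown reads, and is a description only.

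The family of the 24-nt 18S sequence had 119 members with 156 and 5324 reads, a ratio of 33.7 (28.7 to 39.8). The family of segment 6 had 76 and 3370 reads, a ratio of 43.8 (34.9 to 55.7), that of segment 7 had 171 and 2048, a ratio of 11.8 (10.1 to 13.9), and that of segment 8 had 46 and 1797, a ratio of 38.6 (28.8 to 52.9). Their head sequences, the capitals above, had 7 and 642 reads, 11 and 557 reads, and 4 and 520 reads. Among smaller families, that of the 20-nt sequence at bases 37 to 56 of segment 2 had 462 and 114 reads, a ratio of 0.244 (0.197 to 0.300). The family of the 18-nt 18S sequence had 429 and 217 reads and a ratio of 0.4996 (0.422 to 0.590), and that of segment 16 had 233 and 195, a ratio of 0.827 (0.680 to 1.004).

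A large part of the GC-rich reads held rRNA sequence. A match was an exact run of at least 18 nt shared with human 28S, 18S or 5.8S rRNA, written from memory as background knowledge and checked against no file. Pig fragments that differ from the human sequence, and fragments at any typing error, therefore count as without a match. By this measure 1515 members held rRNA, with 2937 control reads, 41.1% of member reads (39.996 to 42.3%), and 34617 knockdown reads, 52.2% (51.9 to 52.6%). Members matching 28S numbered 1263, with 2016 and 28676 reads and a ratio of 14.05 (13.4 to 14.7). Members matching 18S numbered 251, with 921 and 5940 reads and a ratio of 6.37 (5.94 to 6.84). A single member matched 5.8S, with 1 knockdown read. The reversed rRNA sequences, read backwards as a decoy, matched 44 members with 39 and 31 reads. The 4178 members without a match had 4202 and 31643 reads, a ratio of 7.44 (7.20 to 7.68). The difference was thus not confined to members with an rRNA match.

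Adding members that lie in a segment holding rRNA sequence raised the linked members to 1827, with 54.5% of control and 67.8% of knockdown member reads. The remaining members had 3249 and 21333 reads, a ratio of 6.49 (6.25 to 6.73).

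The rRNA fragments as a whole did not differ in this way. Reads of 18 to 32 nt that matched 28S rRNA and had under 80% GC numbered 197546 and 172308, a ratio of 0.862 (0.856 to 0.867), and those matching 18S numbered 113001 and 127380, a ratio of 1.11 (1.10 to 1.12). The GC-rich share of 28S reads was 1.01% for control and 14.3% for knockdown reads, and that of 18S reads 0.808% and 4.46%. Within rRNA reads the ratio was 0.985 at 60 to 70% GC, 2.06 (2.02 to 2.10) at 70 to 80%, 10.7 (10.3 to 11.2) at 80 to 90% and 15.8 (14.5 to 17.3) at 90% and over. Among reads without an rRNA match it was 0.815 (0.801 to 0.829), 2.87 (2.76 to 2.99) and 24.2 (22.6 to 25.9) in the last 3 of these classes. Among reads without a match the ratio at 60 to 70% GC was 0.843 (0.839 to 0.847), so it was lower at 70 to 80% and higher only from 80% up. The rRNA reads passed a ratio of 2 in a lower GC class than the others.

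In several segments the share of reads at each start differed between the libraries, also where the most frequent start was the same base in both, as in segments 3, 4 and 6. It was similar in others, such as segment 9, where 18.8% of control and 19.8% of knockdown reads started at base 43. In segment 1, of 75 nt and all 28S, 58.7% of the 29404 knockdown reads started at base 22. The share was 10.5% for the 831 control reads, whose most frequent start was base 11 with 13.1%. Counts of all reads of a segment include reads of over 32 nt. Here a 33-nt 28S sequence with 34 and 7462 reads, outside the length limit, also started at base 22. Reads starting at bases 21 to 30 numbered 400 and 26152, a ratio of 64.6. Reads starting at bases 1 to 10 numbered 57 and 79, a ratio of 1.37. In the control library their mean GC content was 93.1%, against 80.8% for reads starting at bases 21 to 30. The part of GC content was not tested. In segment 3, of 47 nt with 42 nt of 28S, 95.4% of knockdown reads and 33.6% of control reads started at base 7. Its reads starting at bases 1 to 10 had a ratio of 71.1, and those starting at bases 11 to 20 a ratio of 1.48, on 142 and 213 reads. Segments were built from family heads picked mainly through knockdown reads. The heads start at base 22 of segment 1 and base 7 of segment 3, so the higher knockdown counts there follow in part from that choice.

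Segment 2 held reads that went in both directions. Reads starting at bases 31 to 40 numbered 774 and 240, a ratio of 0.306, which is 3.26-fold lower, and those starting at bases 41 to 50 numbered 383 and 310, a ratio of 0.799. Reads starting at bases 51 to 60 numbered 41 and 3002, a ratio of 72.3, and at bases 61 to 70 they numbered 86 and 6052, a ratio of 69.5. At bases 71 to 80 they numbered 41 and 30, a ratio of 0.723. The most frequent start was base 37 for control reads, with 20.1%, and base 64 for knockdown reads, with 48.7%. Base 64 is the first of the capitals, picked mainly through knockdown reads, so the higher knockdown counts there follow in part from that choice. Control reads starting at bases 41 to 50 averaged 83.9% GC, and those starting at bases 71 to 80 averaged 91.3%. Whether GC content plays a part in segment 2 was not tested. Reads of segment 2 below 80% GC numbered 926 and 455, a ratio of 0.485 (0.433 to 0.544).

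Segments 4, 5 and 6 also had more of their knockdown than of their control reads at 1 start. In segment 5, the 56-nt 18S stretch, reads starting at bases 21 to 30 numbered 139 and 4896, a ratio of 34.8, and those starting at bases 1 to 10, with a mean GC content of 50.5% in the control library, numbered 357 and 498, a ratio of 1.38. In segment 4, 80.1% of knockdown reads and 22.4% of control reads began at base 10, the first of the capitals. In segment 6, 50.03% and 31.6% began at base 8, also the first of the capitals. In segment 7 the shares at base 25, again the first of the capitals, were 26.8% and 16.1%. The capitals and the family head of segment 5 were picked mainly through knockdown reads, so the higher knockdown shares and counts there follow in part from that choice. Segment 9, an 86-nt 28S stretch, differed less, with member reads at 332 and 1052, a ratio of 3.13 (2.76 to 3.55). Its reads below 80% GC or over 32 nt numbered 767 and 850, a ratio of 1.09 (0.992 to 1.21).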

How the data were processed

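Small RNA isolated from total RNA of pig oocytes was ligated to adapters, reverse transcribed, amplified and sequenced with an Illumina machine (per the labels' protocols). For each library the deposited table lists every distinct sequence of 18 to 44 nt with its raw read count. Per the submitters' processing notes Bowtie2 was run. Version, build and trimming settings are not given in the sources used here. Counts were scaled to all 11836160 control and 11982925 knockdown reads. Shares have exact binomial and ratios exact conditional 95% intervals, and no p-value was made, since each group was 1 library. Named sequences were the 10 most abundant members, the 5 with the largest and the 5 with the smallest ratios from 100 reads up, the heads of the 8 largest families, the most abundant per first base, and 2 on each side of the GC threshold. Segments were extended by overlaps of 17 nt, with at least 5 reads and a next base held by at least 70% of them. Members and lists were chosen with earlier results of these data known. Matches to miRNA hairpins were not analysed here. Calculations were tested on simulated data and used numpy 2.4.6, scipy 1.17.1 and pandas 2.3.3 under Python 3.11.15. Alternatives covered thresholds, scaling, families and rRNA matching.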

Additional observations from a re-analysis of the deposited data

Results flagged for a closer look

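Reads of 33 to 44 nt with at least 80% GC, which lie outside the length limit, were also more abundant in the knockdown library, with 69 control against 8090 knockdown reads and a ratio of 116 (91.4 to 149). A 33-nt 28S rRNA sequence gave 34 and 7462 of them. Members that held the antisense strand of rRNA only numbered 20, with 6 and 24 reads, a ratio of 3.95 (1.57 to 11.8).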

How the results depend on the processing

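Of 81 alternatives, each scored on a single value, 0 reversed it, 42 moved a value beyond its interval or a count by over 1.5 times and 39 did neither. The 39 include all 25 for single sequences, whose only alternative was 0.5 reads added. That change is small beside the width of their intervals, so these 25 say little. The ratio of 9.17 was 4.25 from 75% GC, 12.5 from 85% and 21.1 from 90%. It was 10.1 for 20 to 32 nt and for 21 to 32 nt, 10.2 for 18 to 44 nt, 10.6 without sequences of 1 read, 14.3 from 10 reads and 1.87 with each distinct sequence counted once. Relative to reads of 70 to 80% GC it was 7.48. It was 5.17 without the 10 most abundant members, 7.47 without the largest family, 7.44 without rRNA matches and 6.49 without rRNA-holding segments as well. At 80 to 90% GC it was 10.7 with and 2.87 without an rRNA match. Counting distinct sequences, 20 to 23 nt held 44.9% of control and 44.3% of knockdown members, and C began 47.5% and 51.7%, so for length the order of the libraries turned. Without the 10 most abundant members these knockdown read shares were 42.3% and 52.8%. From 30 reads 184 of 223 members were at least 2-fold higher and 9 lower, and from 1000 reads 10 of 10 and 0. No member had over 424 control reads, so those from 1000 reads had to be higher in the knockdown library. The share over all sequences is not given at these limits, so these counts are a description only. At 4-fold, and relative to reads under 70% GC, 1 of 87 was lower. The 8 largest families held 22.7%, 12.8% and 11.2% of control member reads with shared runs of 12, 18 and 20 nt and 60.9% by single linkage, and 81.8%, 76.8%, 72.3% and 91.8% of knockdown member reads. Matches to rRNA took 43.6%, 30.9% and 36.4% of control and 54.7%, 50.1% and 49.7% of knockdown member reads with runs of 15 nt, of 20 nt and over the whole read. The cause of these shifts was not tested, beyond the change in what was counted. The extension settings and the splits by rRNA were chosen after seeing the data. No paired analysis was possible because each group was 1 library. Control counts of 1 or 2 reads limit the largest ratios.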
